A study of Mus musculus with 6 samples.

Results

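The tumour necrosis factor (TNF) ligands and receptors named Tnfsf and Tnfrsf were described in bone marrow cells of mice. Members were chosen by name. They are the protein-coding genes of the deposited count table, as annotated in GENCODE M21, whose symbol starts with Tnfrsf or Tnfsf, and there are 32 among 55401 gene IDs. Of these, 20 encode receptors and 12 encode ligands.

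RNA was measured in 6 bulk libraries of 2000 sorted cells each, 3 per group. LSK cells (Lin-, Sca-1+, c-Kit+), a fraction that holds stem and multipotent progenitor cells, came from the marrow of C57BL/6 mice, untreated and 6 to 8 weeks old. The ESC-derived group was sorted as Lin-, Sca-1+ and c-Kit- from the marrow of primary recipients, animals that had been given sorted CD144+ cells (labelled treatment, ESCs differentiation). Both groups are labelled wild type. The labels give neither the strain and age of the recipients, nor the antibodies of the lineage gate, nor a marker that separates donor from host cells, nor whether the libraries of a group came from separate animals. The p-values thus measure the spread between these libraries, which may be technical. The groups differ in origin and in the c-Kit gate together, and these cannot be told apart.

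Ligands of this family are trimeric proteins on the cell surface or shed from it. They cluster their receptors, which recruit adaptor proteins of the TRAF family and switch on NF-kB, or, where the receptor has a death domain, can start apoptosis. On lymphocytes several receptors act as co-stimulators of activated T cells, others carry survival signals in B cells and plasma cells, and the TNF receptors themselves are found on most blood cells, progenitors included.

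Total counts per library ran from 41580006 to 49269286. LSK replicate 2 lay between the other LSK libraries in 62.8% of 15846 tested genes with distinct values, against 18.8% and 18.4% for LSK replicates 1 and 3, while the ESC-derived libraries were each the middle one in 30.4 to 37.6% of genes. Whether LSK replicate 2 shares material with the other LSK libraries was not tested. If it does, fewer than 3 LSK libraries are independent and the p-values are too small, so the calls are given with and without it. The summed level of 14 T cell markers was 190 to 212 CPM in LSK and 15060 to 15820 CPM in ESC-derived libraries, and that of 9 stem and progenitor markers was 1902 to 1966 and 0.428 to 8.17 CPM. CPM are counts scaled to a common library size by TMM. The LSK label thus went with the stem and progenitor markers. Both groups are also labelled Lin-, yet the T cell markers were high in ESC-derived libraries. In LSK libraries plasma cell markers summed to 4233 to 4957 CPM and B cell markers to 574 to 600 CPM. Most of the plasma cell sum was Jchain, with a mean of 4289 CPM. Mzb1 and Xbp1 had means of 143 and 129 CPM, and Sdc1, Irf4, Derl3 and Prdm1 of 24.7, 24.5, 13.4 and 4.10 CPM. How far the lineage gate held was not tested. The c-Kit-negative label went with Kit, at 48.7 ± 6.38 CPM for LSK against 0.0896 ± 0.0398 CPM for the ESC-derived group (mean ± SD, n = 3, as for all such values).

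Of the 32 family genes, 28 passed the filter on low counts and were tested. In ESC-derived cells 10 were higher and 6 were lower than in LSK cells, and 12 did not pass (edgeR quasi-likelihood test, adjusted p threshold 0.05 over 16211 genes). Higher genes made up 35.7% of the 28, against 14.8% of all genes tested, and lower genes made up 21.4%, against 15.2%. In either direction 30.0% of all genes passed. The split over all genes depends on scaling, with 2395 higher and 2466 lower by TMM, and 1756 and 3057 with library totals only, where 10 family genes were higher and 7 lower. A gene that passes the filter only through the group where it is high had to differ, so these shares are a description. Among 10 tested ligands 5 were higher and 0 lower, and among 18 tested receptors 5 were higher and 6 lower. That difference between classes was not tested. The median log2 fold change was 1.53 for the ligands and -0.69 for the receptors, beside -0.07 for all genes tested. Without LSK replicate 2, 7 family genes were higher and 3 lower, where 1466 and 1250 of all genes passed. The 6 calls lost without it were Tnfrsf1b, Tnfsf9 and Tnfsf11 among the higher genes and Tnfrsf13c, Tnfrsf11b and Tnfrsf12a among the lower ones. The 10 calls that remained had adjusted p from 0.000833 (Tnfrsf25) to 0.0244 (Tnfrsf17). Without that library the log2 fold change was 2.46 for Tnfrsf18, 3.14 for Tnfrsf4, 3.15 for Tnfrsf9, 6.15 for Tnfrsf25, -2.32 for Tnfrsf13b and -2.95 for Tnfrsf21. For the ligands it was 3.42 for Tnfsf8, 3.83 for Tnfsf14 and 3.37 for Tnfsf13b.

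**Figure D1:**
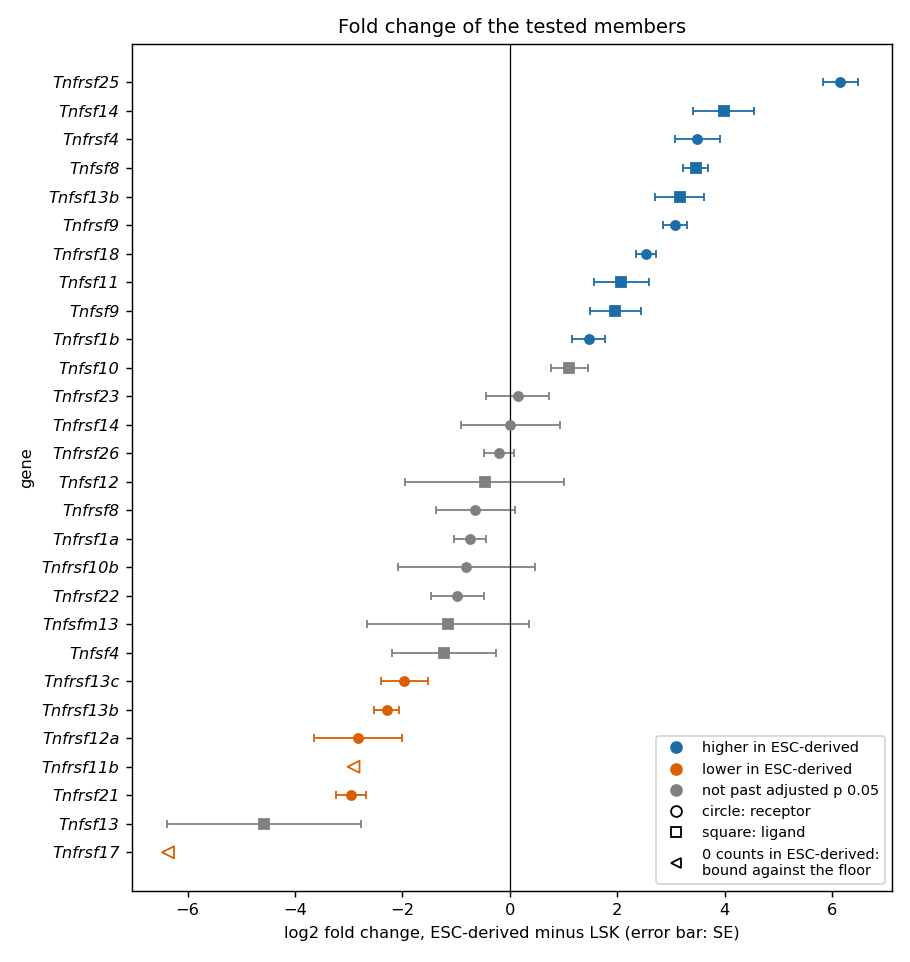
Log2 fold change of ESC-derived minus LSK cells for the 28 tested family genes, on the horizontal axis, with 1 gene per line. Points are fitted values with their SE, circles are receptors and squares ligands, blue and orange mark genes that passed as higher and lower, and open triangles stand for genes with 0 counts in ESC-derived cells, drawn at the bound against the floor. Tnfrsf25 lies farthest to the right at 6.15, and 9 more genes that passed follow it.

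Of 6 receptors of T cell co-stimulation 4 rose (66.7%, beside 14.8% of all genes), 0 fell and 2 did not pass in ESC-derived cells. Tnfrsf18, which encodes GITR, a receptor of activated and regulatory T cells (ENSMUSG00000041954, chromosome 4, 156026164 to 156028895, plus strand, mm10), read 57.9, 65.0 and 86.8 CPM in LSK replicates 1 to 3 and 402, 356 and 458 CPM in ESC-derived replicates 1 to 3. Every ESC-derived library lay above every LSK library. The means were 69.9 ± 15.1 and 406 ± 51.3 CPM, a log2 fold change of 2.54 ± 0.19 (SE, adjusted p = 0.000203). Per kilobase of exon Tnfrsf18 had the highest mean of the 20 receptors in both groups, 45.9 CPM per kilobase in LSK and 266 CPM per kilobase in ESC-derived cells. Tnfrsf18 was therefore not a transcript of the ESC-derived libraries alone. The antisense gene Gm16008 covers 27.2% of its exon bases, and the libraries do not mark strand.

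Tnfrsf4, which encodes OX40, a receptor induced on activated T cells (ENSMUSG00000029075, chromosome 4, 156013843 to 156016612, plus strand), read 10.3, 4.57 and 12.5 CPM in LSK replicates 1 to 3 and 74.1, 117 and 115 CPM in ESC-derived replicates 1 to 3. Its groups did not overlap, and LSK replicate 2 held the lowest value. The log2 fold change was 3.49 ± 0.42 (adjusted p = 0.00145). Tnfrsf9, which encodes the activation-induced co-stimulator 4-1BB (ENSMUSG00000028965, chromosome 4, 150914562 to 150946102, plus strand), read 5.73, 6.30 and 4.72 CPM in the LSK libraries and 41.6, 50.6 and 49.2 CPM in the ESC-derived libraries, in replicate order. The 3 libraries of each group lay close together, and the log2 fold change was 3.08 ± 0.23 (adjusted p = 0.000172).

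Tnfrsf25, which encodes the death domain receptor DR3 of T cells (ENSMUSG00000024793, chromosome 4, 152115934 to 152120119, plus strand), read 0.516, 0.569 and 0.566 CPM in the LSK libraries and 46.4, 28.6 and 42.9 CPM in the ESC-derived libraries. It was near 0 in each LSK library, with 25, 26 and 26 counts, and rose by a log2 fold change of 6.15 ± 0.33 (adjusted p = 4.41e-05). The remaining receptors of this group were low in both kinds of cell. Tnfrsf8, which encodes CD30, had a mean of 2.26 ± 0.763 CPM in LSK against 1.44 ± 0.825 CPM in ESC-derived cells (adjusted p = 0.574). Tnfrsf14, which encodes HVEM, had means of 1.11 ± 0.639 and 1.12 ± 0.622 CPM (adjusted p = 0.995), and its values overlapped between groups.

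These rises moved with the T cell list, in which 14 of 14 markers were higher, and with the NK and cytotoxic list, in which 8 of 8 were higher and the summed level went from 553 to 607 CPM in LSK to 10325 to 12182 CPM in ESC-derived libraries. Of 4 regulatory T cell markers 1 was higher (25.0%, beside 14.8% of all genes), Ctla4, an inhibitory receptor also of activated T cells. Foxp3, the factor that defines regulatory T cells, read 0.289, 0.153 and 1.68 CPM in the LSK libraries and 0.642, 6.64 and 4.94 CPM in the ESC-derived libraries and did not pass. By mean CPM, not scaled by length, Lck and Cd28 led the T cell list in LSK libraries and Cd3d and Cd8b1 in ESC-derived ones. Nkg7 and Gzmb led the cytotoxic list in both groups. Il2ra and Ikzf2 led the regulatory list in LSK and Ctla4 and Ikzf2 in ESC-derived libraries, and no marker of these 3 lists was at 0 in a whole group. In bulk RNA more cells of a type and more RNA per cell cannot be told apart, and the part of cell types in the results here and below was not tested.

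**Figure D2:**
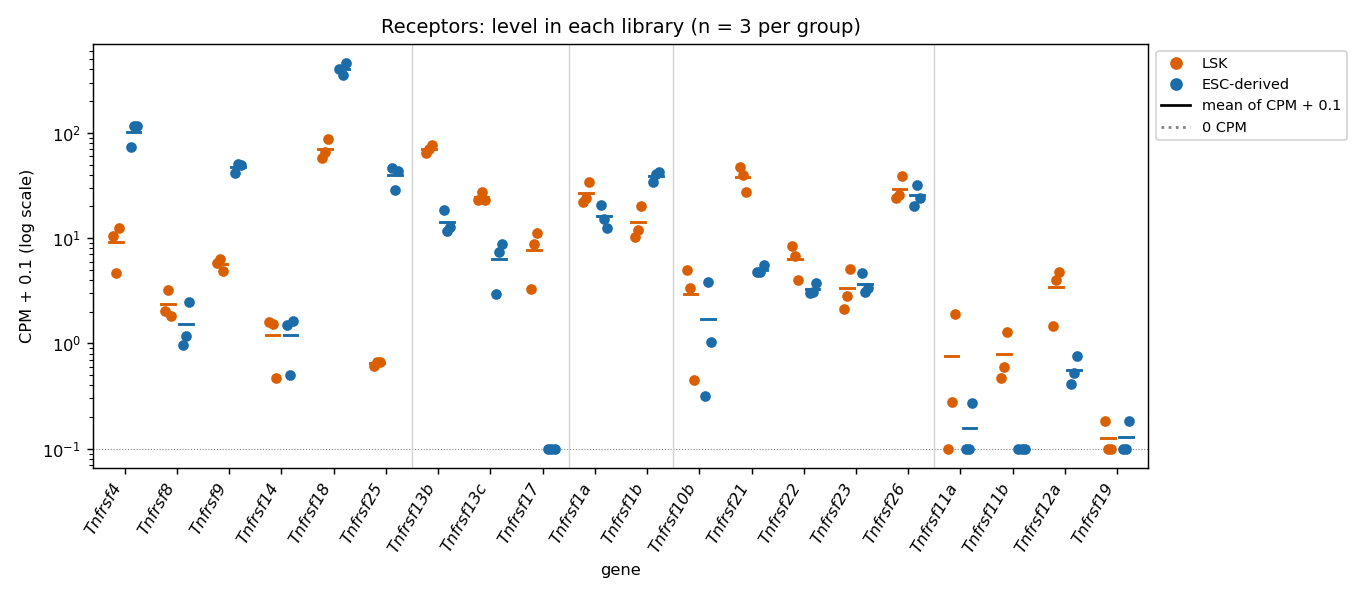
Level of the 20 receptors in each library, as CPM + 0.1 on a logarithmic vertical axis, with genes on the horizontal axis in the order T cell co-stimulation, B lineage, TNF receptors, death domain and decoy receptors, and bone and tissue receptors. Orange points are the 3 LSK libraries, blue points the 3 ESC-derived libraries and short lines the means. Tnfrsf18 is the highest in ESC-derived cells, between 356 and 458 CPM, and Tnfrsf17 lies at 0 in all 3 of them.

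Markers of other cells were read as well, beside 14.8% higher and 15.2% lower among all genes tested. Of 6 dendritic cell markers 1 was higher and 2 lower, with Siglech at 0 counts in ESC-derived cells and Irf8 and Bst2 the highest by CPM in both groups. Of 6 tested endothelial and stromal markers 2 were lower, with Pecam1 the highest by CPM in both groups and Cdh5 and Pdgfrb at 0 in ESC-derived cells. Of 4 tested megakaryocyte and erythroid markers 2 were lower, and Hbb-bt was the highest by CPM in both groups. All 9 stem and progenitor markers were lower, Flt3 and Cd34 being the highest by CPM in LSK cells, and Hoxa9 had 0 counts in ESC-derived cells.

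Of the 10 genes that rose, 6 lie on chromosome 4. That chromosome holds 9 family genes, of which 8 were tested, 6 rose and 0 fell. Of all 915 tested genes of chromosome 4, 13.8% were higher and 15.1% lower. Tnfrsf4 and Tnfrsf18 are neighbours there, with 9551 bases and no other protein-coding gene between them, and both rose. Tnfrsf1b and Tnfrsf8 are also neighbours, 20266 bases apart, and of these only Tnfrsf1b passed, a difference that was not tested. On chromosome 17 the ligand genes Tnfsf9 and Tnfsf14 lie 81734 bases apart with 1 protein-coding gene between them, and both rose.

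Promoter sequences are shown for genes that moved in opposite directions. They come from RefSeq (GRCm38.p6, the assembly that mm10 names), which lists 25 of the 32 genes. Each is the 250 bases before the RefSeq start site nearest to the GENCODE start, written 5′ to 3′ along the gene. Capitals mark matches, on either strand, to the NF-kB consensus, the AP-1 motif TGACTCA, the NFAT core TGGAAA and the RUNX motif TGTGGT, binding motifs of factors used in lymphocyte activation and blood development. The first 3 genes rose and the last 3 fell, and all 6 windows are free of annotated exons. The start used for Tnfrsf9 lies 5593 bases from its GENCODE start.
Tnfrsf25, chr4:152115684-152115933, plus strand: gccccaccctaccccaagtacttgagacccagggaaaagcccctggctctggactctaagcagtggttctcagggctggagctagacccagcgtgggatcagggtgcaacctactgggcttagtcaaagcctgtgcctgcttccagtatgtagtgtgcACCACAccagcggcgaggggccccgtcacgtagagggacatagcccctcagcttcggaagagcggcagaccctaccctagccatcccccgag
Tnfrsf9, chr4:150919905-150920154, plus strand: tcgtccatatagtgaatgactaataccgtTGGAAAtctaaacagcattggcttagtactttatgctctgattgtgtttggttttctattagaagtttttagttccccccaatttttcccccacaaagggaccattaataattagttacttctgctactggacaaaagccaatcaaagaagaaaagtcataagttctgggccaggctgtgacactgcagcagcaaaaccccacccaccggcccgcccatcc
Tnfsf14, chr17:57194182-57194431, minus strand: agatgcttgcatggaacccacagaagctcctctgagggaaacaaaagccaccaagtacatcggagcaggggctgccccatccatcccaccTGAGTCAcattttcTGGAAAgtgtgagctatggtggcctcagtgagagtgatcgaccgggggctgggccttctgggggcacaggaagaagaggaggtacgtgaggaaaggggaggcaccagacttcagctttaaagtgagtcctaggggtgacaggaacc
Tnfrsf13b, chr11:61126505-61126754, plus strand: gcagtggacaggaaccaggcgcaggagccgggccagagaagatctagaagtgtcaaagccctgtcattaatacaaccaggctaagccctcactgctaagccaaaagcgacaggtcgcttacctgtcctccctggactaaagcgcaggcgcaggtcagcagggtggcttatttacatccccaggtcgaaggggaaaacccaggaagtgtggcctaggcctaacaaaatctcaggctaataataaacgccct
Tnfrsf13c, chr15:82224381-82224630, minus strand: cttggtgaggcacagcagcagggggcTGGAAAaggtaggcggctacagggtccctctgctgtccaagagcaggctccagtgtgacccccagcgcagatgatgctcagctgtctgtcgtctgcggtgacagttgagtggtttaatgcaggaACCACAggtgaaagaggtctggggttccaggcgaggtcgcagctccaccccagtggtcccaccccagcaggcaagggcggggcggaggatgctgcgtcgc
Tnfrsf21, chr17:43016305-43016554, plus strand: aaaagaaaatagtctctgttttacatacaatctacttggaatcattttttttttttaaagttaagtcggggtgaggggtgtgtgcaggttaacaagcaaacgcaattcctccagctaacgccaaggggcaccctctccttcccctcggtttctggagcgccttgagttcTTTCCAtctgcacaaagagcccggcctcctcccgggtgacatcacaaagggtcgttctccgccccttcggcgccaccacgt

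Among these 6 windows, Tnfsf14 holds an AP-1 match and, closer to the start, an NFAT match, Tnfrsf9 and Tnfrsf21 hold an NFAT match, Tnfrsf25 a RUNX match, Tnfrsf13c an NFAT and a RUNX match, and Tnfrsf13b none of the 4. The NF-kB consensus was in 1 of the 25 windows, that of Tnfrsf8, where matches overlap each other, and in 7.25% of all 32851 windows of this length. An NFAT core was in 6 of 25 and in 18.6% of all, a RUNX motif in 3 of 25 and in 14.0% of all, and the AP-1 motif in 3 of 25 and in 4.46% of all. Matches thus stood before genes that rose, genes that fell and genes that did not pass. The choice of start site matters for 3 genes. The second RefSeq start of Tnfrsf9, at position 150927999, has 3 NF-kB matches and 1 AP-1 match before it. That of Tnfrsf25 has 1 NF-kB match, and that of Tnfsf13b has 1 AP-1 match. Matches were counted on each strand and at overlapping positions, so 3 matches need not be 3 sites.

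Receptors of the B lineage were all lower in ESC-derived cells. The 3 encode the receptors of BAFF and APRIL, of which the BAFF receptor binds BAFF alone. Tnfrsf13b, which encodes TACI (ENSMUSG00000010142, chromosome 11, 61126755 to 61149372, plus strand), read 63.7, 69.7 and 76.4 CPM in LSK replicates 1 to 3 and 18.4, 11.6 and 12.7 CPM in ESC-derived replicates 1 to 3. Each ESC-derived library still held at least 493 counts, so the transcript was lower and not lost. Its log2 fold change was -2.29 ± 0.23 (adjusted p = 0.000673). Per kilobase of exon it was second to Tnfrsf18 among receptors in LSK cells, at 24.7 CPM per kilobase.

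Tnfrsf13c, which encodes the BAFF receptor of B cells (ENSMUSG00000068105, chromosome 15, 82221743 to 82224369, minus strand), read 22.8, 27.6 and 23.1 CPM in the LSK libraries and 2.88, 7.27 and 8.64 CPM in the ESC-derived libraries. ESC-derived replicate 1 was the lowest library, and the groups did not overlap. The fold change was -1.97 ± 0.44 on the log2 scale (adjusted p = 0.0154), and the call was lost without LSK replicate 2 (adjusted p = 0.065, range over 15 alternatives 6.49e-05 to 0.065). Tnfrsf17, which encodes the plasma cell receptor BCMA (ENSMUSG00000022496, chromosome 16, 11313812 to 11320074, plus strand), had 153, 394 and 505 counts in LSK replicates 1 to 3 and 0 in each ESC-derived library. Against a floor of 12 counts over the group, the ESC-derived level was at least 82.4-fold lower (adjusted p = 0.00373). LSK replicate 1 held less than the other LSK libraries, and the LSK mean was 7.59 ± 4.02 CPM.

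Markers of the B lineage were measured beside these receptors. The summed level of 9 B cell markers was 574 to 600 CPM in LSK and 9.25 to 17.4 CPM in ESC-derived libraries, with 5 lower and Igll1 at 0 counts in ESC-derived cells. That of 7 plasma cell markers was 4233 to 4957 CPM and 97.9 to 119 CPM, with 5 lower, 1 higher (Prdm1) and no marker at 0. Jchain made up most of the LSK sum. Cd79a and Cd79b, signalling subunits of surface immunoglobulin, were the highest of the first list by CPM in both groups. Jchain and Mzb1 were the highest of the second in LSK cells, and Xbp1 and Prdm1 in ESC-derived cells. With immunoglobulin genes left out of the libraries, the same counts of 10 higher and 6 lower family genes were found.

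Of the receptors of TNF 1 rose and 1 did not pass. Tnfrsf1b, the TNF receptor without a death domain that is prominent on T cells (ENSMUSG00000028599, chromosome 4, 145213463 to 145246870, minus strand), read 10.1, 12.0 and 20.1 CPM in LSK replicates 1 to 3 and 34.0, 40.6 and 42.0 CPM in ESC-derived replicates 1 to 3. It rose by 1.47 ± 0.30 on the log2 scale (adjusted p = 0.0121), with no overlap, and missed the threshold without LSK replicate 2 (adjusted p = 0.0639, range over 15 alternatives 7e-05 to 0.0639). Tnfrsf1a, the widely expressed TNF receptor with a death domain (ENSMUSG00000030341, chromosome 6, 125349362 to 125362484, plus strand), read 22.1, 23.7 and 34.3 CPM in the LSK libraries and 20.3, 15.1 and 12.4 CPM in the ESC-derived libraries. All ESC-derived values lay below all LSK values, yet the difference did not pass (log2 fold change -0.74 ± 0.29, adjusted p = 0.106). It passed as lower with DESeq2 (adjusted p = 0.0475) and with library totals only (0.0354, range over 15 alternatives 0.0354 to 0.28). Groups without overlap were found in 49.8% of all genes tested, 22.6% with ESC-derived cells above and 27.2% below, and in 11 and 9 family genes.

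Of 5 other death domain and decoy receptors 1 fell and 4 did not pass. Tnfrsf21, which encodes the death receptor DR6 (ENSMUSG00000023915, chromosome 17, 43016555 to 43089189, plus strand), read 47.2, 40.0 and 27.6 CPM in LSK replicates 1 to 3 and 4.66, 4.63 and 5.47 CPM in ESC-derived replicates 1 to 3. The LSK values spread over a wider range than the ESC-derived ones, and the log2 fold change was -2.96 ± 0.28 (adjusted p = 0.000557). Tnfrsf26, a mouse receptor with no known human counterpart, read 24.1, 25.3 and 38.5 CPM in the LSK libraries and 20.3, 31.7 and 24.1 CPM in the ESC-derived libraries, and its groups overlapped (adjusted p = 0.631). It was among the better expressed receptors in both groups, at 9.11 and 7.88 CPM per kilobase of exon in LSK and ESC-derived cells.

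Tnfrsf22 and Tnfrsf23, decoy receptors of the mouse for the apoptosis ligand TRAIL, lie beside Tnfrsf26 on chromosome 7. Mean levels were 6.30 ± 2.24 and 3.25 ± 1.56 CPM for LSK, then 3.19 ± 0.421 and 3.60 ± 0.851 CPM for the ESC-derived group, and neither passed (adjusted p = 0.189 and 0.881). Of their stretches of 50 bases 27.4% and 19.3% occur in other genes, each other first, so the split of reads is uncertain. The antisense gene E230032D23Rik crosses both and Tnfrsf26, with 4842 counts over the LSK and 1191 over the ESC-derived libraries. It shares 164 exon bases with Tnfrsf23 and 107 with Tnfrsf26, and none were found for Tnfrsf22. Tnfrsf10b, the mouse death receptor for TRAIL, read 4.89, 3.28 and 0.348 CPM in the LSK libraries and 0.214, 3.71 and 0.929 CPM in the ESC-derived libraries. Its libraries differed widely within each group, and it did not pass (adjusted p = 0.687). Its log2 fold change of -0.81 ran from -2.30 without ESC-derived replicate 2 to -0.16 without LSK replicate 1.

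Receptors known from bone and other tissues were low. Tnfrsf12a, which encodes the TWEAK receptor Fn14 (ENSMUSG00000023905, chromosome 17, 23675445 to 23677468, minus strand), read 1.36, 3.92 and 4.66 CPM in the LSK libraries and 0.309, 0.425 and 0.655 CPM in the ESC-derived libraries, with no overlap and a log2 fold change of -2.83 ± 0.82 (adjusted p = 0.0392). Its call was lost in 8 of 15 alternatives, among them the fits without LSK replicates 2 and 3 (adjusted p = 0.168 and 0.13) and without ESC-derived replicates 1, 2 and 3 (0.0849, 0.0912 and 0.053). Tnfrsf11b, which encodes osteoprotegerin, a soluble decoy for RANKL, had 18, 23 and 55 counts in LSK replicates 1 to 3 and 0 in every ESC-derived one. That is a level at least 7.52-fold lower (adjusted p = 0.0166). This call was lost without LSK replicate 2 (0.0728), LSK replicate 3 (0.055) or ESC-derived replicate 2 (0.0506). It was also lost with no low-count filter and with the replicate number as a block. It passed in 8 of the 13 alternatives that tested the gene (range of adjusted p 0.00647 to 0.107). Tnfrsf11a, which encodes RANK, had 0, 8 and 83 counts in LSK and 0, 0 and 8 in ESC-derived libraries and was not tested. LSK replicate 3 thus held nearly all of it. Tnfrsf19, which encodes TROY, had 4 counts in 1 library of each group.

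Among ligands of T cell co-stimulation, 3 of 4 tested rose (75.0%, beside 14.8% of all genes) and 0 fell. Tnfsf8, which encodes the CD30 ligand (ENSMUSG00000028362, chromosome 4, 63831308 to 63861347, minus strand), read 3.63, 4.03 and 4.64 CPM in LSK replicates 1 to 3 and 41.1, 44.3 and 49.7 CPM in ESC-derived replicates 1 to 3. The spread within each group was small beside the difference, a log2 fold change of 3.46 ± 0.23 (adjusted p = 0.000108). Per kilobase of exon it had the highest mean of the ligands in ESC-derived cells, 11.8 CPM per kilobase, next to 10.8 for Tnfsf14 and 8.59 for Tnfsf9, and these neighbours lay within their spread (SD 1.14, 4.63 and 2.65).

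Tnfsf14, which encodes LIGHT, a ligand of HVEM and of the lymphotoxin beta receptor (ENSMUSG00000005824, chromosome 17, 57189492 to 57194177, minus strand), read 1.94, 1.03 and 0.806 CPM in the LSK libraries and 26.6, 22.9 and 10.3 CPM in the ESC-derived libraries. ESC-derived replicate 3 was the lowest of its group and still far above the LSK libraries. The log2 fold change was 3.98 ± 0.57 (adjusted p = 0.00284). Tnfsf9, which encodes the 4-1BB ligand (ENSMUSG00000035678, chromosome 17, 57105325 to 57107757, plus strand), read 1.77, 2.71 and 4.03 CPM in the LSK libraries and 14.9, 8.38 and 9.93 CPM in the ESC-derived libraries, and rose by 1.96 ± 0.48 on the log2 scale (adjusted p = 0.0217). The Tnfsf9 call was lost without LSK replicates 1 or 2 (adjusted p = 0.0594 and 0.0944) or ESC-derived replicate 1 (0.0603). A non-coding gene on the other strand, Gm11110, shares 192 exon bases with Tnfsf9 and had 610 counts over the LSK and 2182 over the ESC-derived libraries, and reads of the overlap cannot be assigned to a strand.

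The other ligands of this kind were at or near 0. Tnfsf4, the OX40 ligand of antigen-presenting cells, read 1.77, 1.29 and 1.87 CPM in the LSK libraries and 0.285, 1.56 and 0.253 CPM in the ESC-derived libraries, and did not pass (adjusted p = 0.402). ESC-derived replicate 2 overlapped the LSK values and the other ESC-derived libraries lay below them, and without it the log2 fold change went from -1.23 to -2.60. Tnfsf15, which encodes TL1A, the ligand of DR3, had 98 counts in ESC-derived replicate 2, 4 in LSK replicate 1 and 0 elsewhere, and was not tested. Tnfsf18, the GITR ligand, had 0 counts in all 6 libraries, which allows up to 0.0856 CPM over the LSK group and 0.0911 CPM over the ESC-derived group.

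**Figure D3:**
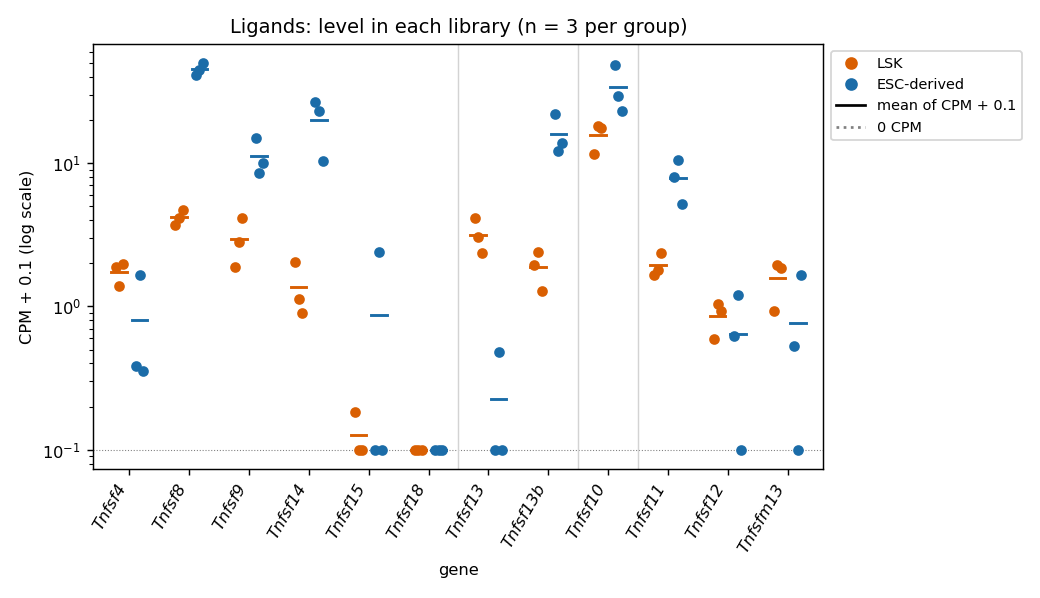
Level of the 12 ligands in each library, as CPM + 0.1 on a logarithmic vertical axis, with genes on the horizontal axis in the order T cell co-stimulation, B lineage, TRAIL, and bone and tissue ligands. Orange points are LSK and blue points ESC-derived libraries, with 3 of each per gene, and short lines are means. Tnfsf8 lies between 41.1 and 49.7 CPM in ESC-derived cells and between 3.63 and 4.64 CPM in LSK cells, and Tnfsf18 lies at 0 throughout.

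Of the ligands of the B lineage receptors 1 rose and 1 did not pass. Tnfsf13b, which encodes BAFF, a survival factor of B cells made mostly by myeloid and stromal cells (ENSMUSG00000031497, chromosome 8, 10006467 to 10039072, plus strand), read 1.84, 2.30 and 1.18 CPM in LSK replicates 1 to 3 and 22.0, 12.0 and 13.6 CPM in ESC-derived replicates 1 to 3. Every ESC-derived library was above every LSK library, with a log2 fold change of 3.16 ± 0.45 (adjusted p = 0.00289). Tnfsf13, which encodes APRIL, read 4.02, 2.95 and 2.24 CPM in the LSK libraries and 0, 0.378 and 0 CPM in the ESC-derived libraries. It lay lower in each ESC-derived library and did not pass (adjusted p = 0.105), but passed as lower without ESC-derived replicate 2 (0.0108), with DESeq2 (0.0182), with limma-voom (0.0121) and with values divided by 4 (0.026, range over 15 alternatives 0.0108 to 0.217). Some myeloid markers were present in both groups. Of 8 monocyte and macrophage markers 2 were higher (Ccr2 and Cx3cr1) and 0 lower, beside 14.8% and 15.2% of all genes. Their summed level was 667 to 731 CPM in LSK and 430 to 745 CPM in ESC-derived libraries. Most of it was Lyz2, with means of 665 and 512 CPM, LSK first. Csf1r, Fcgr1 and Itgam had means of 7.91, 0.196 and 1.19 CPM in LSK. Their means in ESC-derived cells were 3.01, 0.467 and 0.488 CPM, and none of them passed. Of 8 neutrophil markers 5 were higher and 1 lower, at 1101 to 1211 and 2174 to 4287 CPM. By CPM Lyz2 and Ccr2 led the first list in both groups, Mpo and S100a8 led the second in LSK and S100a8 and Ngp in ESC-derived libraries, and no marker of either was at 0 in a whole group.

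Reads at the Tnfsf13 locus are uncertain. Tnfsf12, which encodes TWEAK, Tnfsf13 and the readthrough gene Tnfsfm13, which joins them, overlap on chromosome 11, and 57.3% of the 50-base stretches of Tnfsf13 and 46.8% of those of Tnfsf12 occur in other genes, for the most part Tnfsfm13. Tnfsf12 had means of 0.754 ± 0.232 and 0.544 ± 0.555 CPM, Tnfsfm13 had means of 1.48 ± 0.572 and 0.664 ± 0.808 CPM, LSK first, and neither passed (adjusted p = 0.847 and 0.626). The antisense gene Tnfsf13os, no member here, crosses the locus, with 1208 counts over the LSK and 9 over the ESC-derived libraries. The libraries do not mark strand, so reads of the overlap could belong to either.

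Tnfsf10, which encodes the apoptosis ligand TRAIL (ENSMUSG00000039304, chromosome 3, 27317028 to 27342427, plus strand), read 11.5, 18.2 and 17.5 CPM in LSK replicates 1 to 3 and 48.5, 29.5 and 23.2 CPM in ESC-derived replicates 1 to 3. The groups did not overlap and ESC-derived replicate 1 was the highest, with a log2 fold change of 1.10 ± 0.34 that just missed the threshold (adjusted p = 0.0519). It passed as higher in 4 of 15 alternatives, without ESC-derived replicate 3 (adjusted p = 0.0375) among them (range 0.0119 to 0.142). Tnfsf11, which encodes RANKL, the ligand of RANK made by bone cells and by activated T cells (ENSMUSG00000022015, chromosome 14, 78277445 to 78308043, minus strand), read 1.57, 1.71 and 2.26 CPM in the LSK libraries and 7.92, 10.4 and 5.05 CPM in the ESC-derived libraries. It rose by 2.07 ± 0.51 on the log2 scale (adjusted p = 0.0213). The call was lost without LSK replicates 1 or 2 (0.0658 and 0.102) or ESC-derived replicate 2 (0.0643), and with the replicate number as a block.

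Known partners were set side by side to see where a ligand and its receptor were both measured in a group. In ESC-derived cells Tnfsf9 and its receptor Tnfrsf9 both rose. So did Fasl with its receptor Fas, and the ligand Lta with its receptor Tnfrsf1b. The calls of Tnfsf9 and Tnfrsf1b were lost without LSK replicate 2. The other levels are means per kilobase of exon. Tnfrsf18 had 266 CPM per kilobase while its ligand Tnfsf18 had none. Tnfrsf4 had 74.9 CPM per kilobase beside 0.380 for Tnfsf4, and Tnfrsf25 had 17.3 beside 0.230 for Tnfsf15. Here the receptor stood above the ligand. The reverse held for Tnfsf8, at 11.8 CPM per kilobase beside 0.417 for Tnfrsf8. Tnfsf14 had 10.8 CPM per kilobase beside 0.776 for Tnfrsf14 and 0.478 for Ltbr. In LSK cells Tnfrsf13b and Tnfrsf13c had 24.7 and 12.0 CPM per kilobase beside 0.258 for Tnfsf13b and 1.88 for Tnfsf13.

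**Figure D4:**
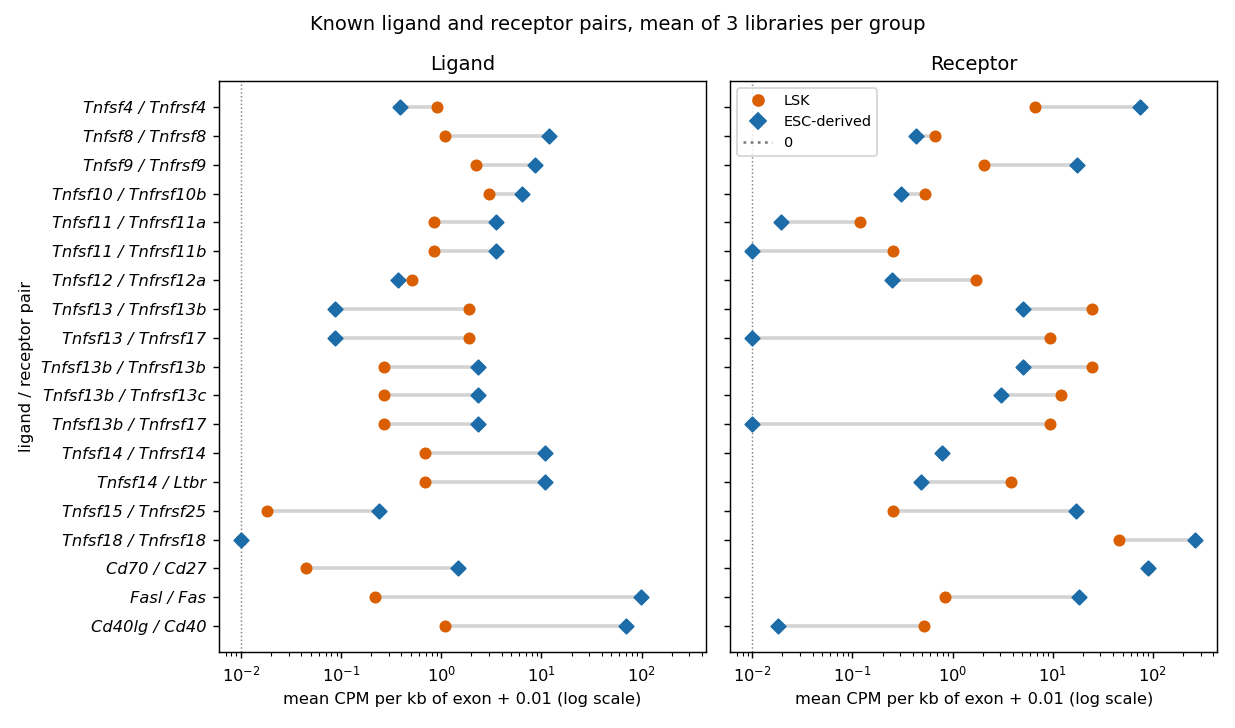
Mean level of each ligand (left) and its receptor (right) for 19 known pairs, 1 pair per line, as CPM per kilobase of exon + 0.01 on a logarithmic horizontal axis. Orange circles are means of the 3 LSK libraries, blue diamonds means of the 3 ESC-derived libraries, and the dotted line stands for 0. Where only a diamond is seen, it covers the circle. Pairs of Tnf and Lta are not drawn. Tnfrsf18 lies at 45.9 CPM per kilobase in LSK, below Cd27 at 90.6, and at 266 in ESC-derived cells, while its ligand Tnfsf18 is at 0 in both.

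Superfamily genes with other symbols were read from lists. Of 7 listed ligands 6 were tested, 4 rose (66.7%, beside 14.8% of all genes) and 1 fell (16.7%, beside 15.2%). Fasl, the death ligand of cytotoxic lymphocytes, read 0.454, 0.306 and 0.435 CPM in the LSK libraries and 152, 169 and 252 CPM in the ESC-derived libraries, and rose by 8.89 ± 0.33 on the log2 scale (adjusted p = 1.25e-05). Cd40lg, by which helper T cells activate B cells, rose by 6.02 ± 0.29, from 1.36 ± 0.392 to 88.0 ± 8.41 CPM. Ltb, a lymphotoxin chain, rose by 2.06 ± 0.13. Eda, a ligand of skin development, had a mean of 2.06 ± 1.28 CPM for LSK and no count for the ESC-derived group. That is a level at least 22.8-fold lower (adjusted p = 0.0125). The Eda call was lost without LSK replicate 2 (adjusted p = 0.0605) and with the replicate number as a block. Tnf itself had means of 46.7 ± 6.02 and 39.0 ± 5.02 CPM and did not pass (log2 fold change -0.26 ± 0.18, adjusted p = 0.347).

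Of 8 listed receptors with other symbols 5 were tested, 1 rose and 2 fell. Cd27 had means of 211 ± 12.5 CPM for LSK and 210 ± 7.93 CPM for the ESC-derived group. It did not pass (log2 fold change -0.01 ± 0.10, adjusted p = 0.957). At 90.6 CPM per kilobase of exon in LSK cells it stood above Tnfrsf18, at 45.9. Fas, the death receptor for Fasl, read 0.577, 1.77 and 2.83 CPM in the LSK libraries and 37.6, 35.3 and 39.7 CPM in the ESC-derived libraries, and rose by 4.44 ± 0.59 on the log2 scale (adjusted p = 0.00211). Ltbr, the lymphotoxin beta receptor, fell from 8.95 ± 1.10 to 1.13 ± 0.585 CPM (log2 fold change -2.99 ± 0.58, adjusted p = 0.00925). Cd40, the partner of Cd40lg, had a mean of 1.75 ± 0.541 CPM for LSK and 4 counts in all for the ESC-derived group (adjusted p = 0.031). The Cd40 call was lost without any single library other than ESC-derived replicate 3, with adjusted p from 0.0685 to 0.11. It was also lost with no low-count filter and with the replicate number as a block. Edar and Eda2r had 0 counts in all libraries.

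Genes that act downstream of the receptors were read from another pair of lists. Of 20 TRAF proteins and receptor adaptors, all tested, 9 rose (45.0%, beside 14.8% of all genes), 0 fell and 11 did not pass, with a median log2 fold change of 0.61. Traf1, an activation-induced adaptor bound by several co-stimulatory receptors, read 11.8, 16.3 and 18.8 CPM in the LSK libraries and 159, 104 and 164 CPM in the ESC-derived libraries, and rose by 3.18 ± 0.27 on the log2 scale (adjusted p = 0.000325). Otulin, which trims linear ubiquitin chains, rose by 1.31 ± 0.13, and Tradd, the adaptor of Tnfrsf1a and Tnfrsf25, by 1.08 ± 0.13. Without LSK replicate 2, 6 genes of this list rose, where 1466 of all genes were higher.

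Of 19 NF-kB subunits, kinases and inhibitors 6 rose (31.6%, beside 14.8% of all genes) and 1 fell (5.26%, beside 15.2%). The other 12 did not pass, and the median log2 fold change was 0.46. Among the 6, the 3 with the lowest adjusted p encode inhibitors of the pathway. Tnfaip3, which encodes the deubiquitinase A20, rose by 1.58 ± 0.13 to 190.4 ± 10.3 CPM, and Nfkbia and Nfkbib, which encode proteins that hold NF-kB in the cytoplasm, rose by 0.65 ± 0.11 and 0.83 ± 0.18. The remaining genes that rose were the subunit genes Nfkb2 (1.12 ± 0.25, adjusted p = 0.0152) and Relb (2.13 ± 0.50, adjusted p = 0.0193) and the kinase gene Ikbkb (0.69 ± 0.16, adjusted p = 0.0175). Tnip2, a partner of A20, fell (-1.30 ± 0.27). Without LSK replicate 2, 2 genes of this list rose and 0 fell, where 1466 of all genes were higher and 1250 lower. The calls of Nfkbib (adjusted p = 0.071) and Tnip2 (0.0536) were among those lost, that of Nfkbib also without LSK replicate 1 (0.0514). Those of Nfkb2 (0.0795), Relb (0.0805) and Ikbkb (0.0756) were lost as well without LSK replicate 2. With library totals only, which moves the median of all genes by -0.25 on the log2 scale, 4 genes of this list and 7 of the adaptor list rose. Of all genes, 1756 were higher there.

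**Figure D5:**
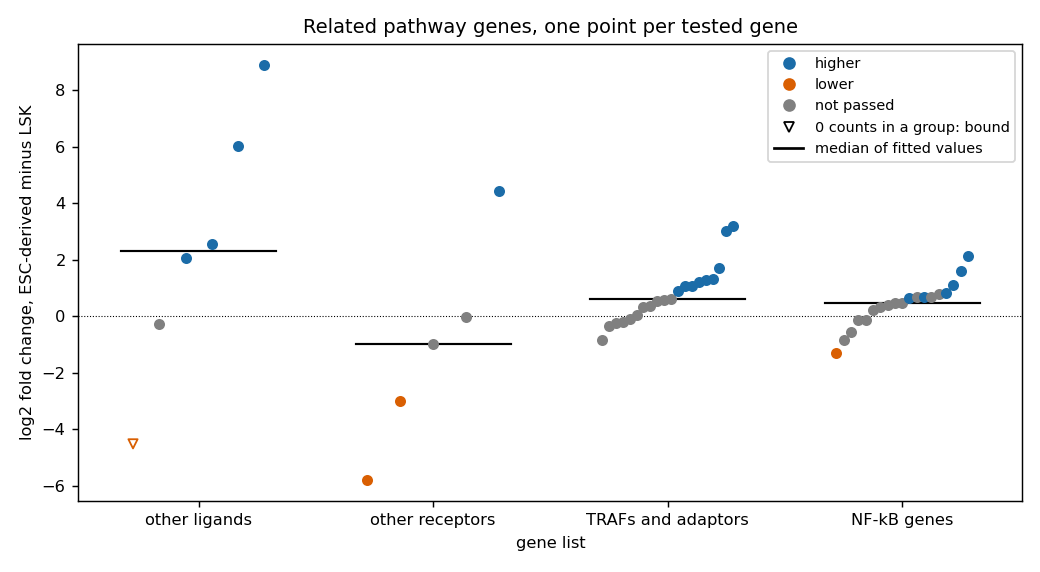
Log2 fold change of ESC-derived minus LSK cells (vertical axis) for the tested genes of 4 related lists, 1 point per gene. Blue and orange mark genes that passed as higher and lower, grey those that did not pass, the open triangle is a gene with 0 counts in a group at its bound, and lines are medians of fitted values. Medians are 2.32 for the other ligands, -0.98 for the other receptors, 0.61 for TRAFs and adaptors and 0.46 for NF-kB genes.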

How the data were processed

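The table that the authors deposited holds 1 estimated count per gene and library, in whole numbers with no normalization. HISAT, StringTie and mm10 are named in the submitters' processing notes, and the program that wrote the counts is not given in the sources used here. A SMART-Seq kit and Nextera XT, neither of which marks strand, were used per the labels' protocols. Between 40.1 and 47.2% of values from 1 to 20 were divisible by 4, for a reason the labels do not state. The floor was set at 12 counts over a group, which assumes 3 fragments of 4 counts each. Floors cover counting error only. The 6 column names share 1 header field and were read in its order.

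Of the gene IDs, 55141 matched GENCODE M21, which uses the mm10 assembly, and 260 did not. Genes passing filterByExpr (16211) were scaled by TMM and tested with the edgeR 4.0.16 quasi-likelihood F test in R 4.3.3 (robust, two-sided, Benjamini-Hochberg over all genes tested). Each SE is the fold change divided by the root of F. Levels per kilobase divide CPM by the summed exon length.

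Members and lists were chosen with earlier results of these data known. All family genes are named, with each library's value where a gene passed or reached 10 CPM, and up to 3 higher and 3 lower genes of each pathway list, by adjusted p. Some further genes of these lists are named as well, among them Tnf, Lta, Cd27 and the remaining NF-kB genes that rose. Alternatives were DESeq2 1.42.0, limma-voom (limma 3.58.1), RLE scaling, library totals, no filter, at least 50 counts in 3 libraries, values divided by 4, no immunoglobulin genes, a replicate block, and leaving out single libraries. The fit was tested on simulated data.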

Additional observations from a re-analysis of the deposited data

How the results depend on the processing

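Of the 16 family genes that passed, 10 passed in the same direction in each of the 15 alternatives, and 3 of the 12 that did not pass did so in at least 1. With each library left out in turn, higher family genes numbered 7 to 11 and lower ones 3 to 6, and over all genes 1466 to 2163 were higher and 1250 to 2440 lower. The lowest counts came without LSK replicate 2. The replicate number as a block gave 1488 lower genes in all, against 2466, and 8 higher and 4 lower family genes. Deviations of libraries of the same number had correlations of 0.004, 0.054 and 0.006 across genes, and those of different numbers ran from -0.044 to 0.022. With 3 libraries per group, such values cannot decide whether equal numbers share a batch or animal. The labels do not say, and the main fit used no pairing. With no filter 4 family genes were lower, where 2136 of all genes were, and with DESeq2 11 were higher and 8 lower, where 2919 and 3380 of all genes were. No call reversed. Of the genes that did not pass, Tnfrsf14, Tnfrsf23, Tnfrsf26 and Tnfsf12 changed sign in at least 1 alternative, so no direction is given for them. Tnfrsf14 went from 0.01 on the log2 scale to values between -0.41 and -0.01 in 6 alternatives. The part of depth in the lost calls was not tested.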
